A study of Rattus norvegicus with 8 samples.

Results

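Nfat5 encodes the transcription factor that, when the surroundings of a cell become concentrated, switches on genes for the uptake and synthesis of organic osmolytes, small solutes such as myo-inositol, sorbitol, taurine and betaine that hold water in the cell without disturbing its proteins. The pathway is best known from the kidney medulla. In liver, swelling of hepatocytes in dilute fluid is followed by the release of osmolytes, and shrinkage by their uptake. The 5 genes described here were Nfat5 itself, Slc5a3 (the sodium-coupled myo-inositol transporter), Akr1b1 (aldose reductase, which reduces glucose to sorbitol), Impa1 (inositol monophosphatase, which frees myo-inositol from inositol monophosphate) and S100a4 (a small calcium-binding protein, known as an osmotic response gene of mouse kidney medulla cells). They were chosen by name. Each is represented by the probe set with that single gene symbol and, where there were several, the highest mean, and all 5 were found among the 14506 named genes of the arrays.

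Livers of male Wistar rats aged 6 to 10 weeks were perfused for 180 min with a bicarbonate-buffered salt solution, Krebs-Henseleit buffer. It was hypoosmotic (225 mosm/L) for 4 arrays and normoosmotic (305 mosm/L) for the other 4. No array of an unperfused liver entered the comparison, so all groups share the perfusion itself. RNA came from homogenised whole liver. Nothing in the labels states that the 4 samples of a group were separate animals, and the p-values below therefore reflect only how far these samples scattered, part of which may be technical.

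The values are log2 intensities normalised by the authors, with array medians between 3.92 and 4.05. Changes are differences of group means on that scale, hypoosmotic minus normoosmotic, tested with limma across all 14506 genes with Benjamini-Hochberg adjustment and a threshold of 0.05. By this test 1024 genes (7.06%) differed between hypoosmotic and normoosmotic livers, 355 (2.45%) higher and 669 (4.61%) lower in the hypoosmotic group. With each array centred on its median, 270 were higher and 834 lower. Hypoosmotic replicate 3 lay apart from the other 7 arrays on the second principal component (18.9% of the variance), at -28.4 against -6.53 to 15.3. Without it 912 genes passed, 364 higher and 548 lower, and adjusted p-values without it are given below for Nfat5 and Slc5a3. All 12 hepatocyte markers were measured and 0 passed (limma), with 1 at an unadjusted p under 0.05 (Hnf4a). Their mean log2 level per array was 11.6 to 11.8 in hypoosmotic and 11.6 to 11.8 in normoosmotic livers.

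Of the 5 genes, Nfat5 and Slc5a3 fell, 0 rose and 3 did not pass, against a background of 7.06% of all genes called. These 2 genes also had groups that did not overlap, which was true of 13.5% of all genes. The hypoosmotic group lay wholly below the normoosmotic one for 8.2% of genes and wholly above it for 5.32%. The fall was 2.37-fold for Nfat5 and 2.11-fold for Slc5a3. Akr1b1 had a difference of the opposite sign, and Impa1 and S100a4 had differences whose intervals included 0.

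**Figure D1:**
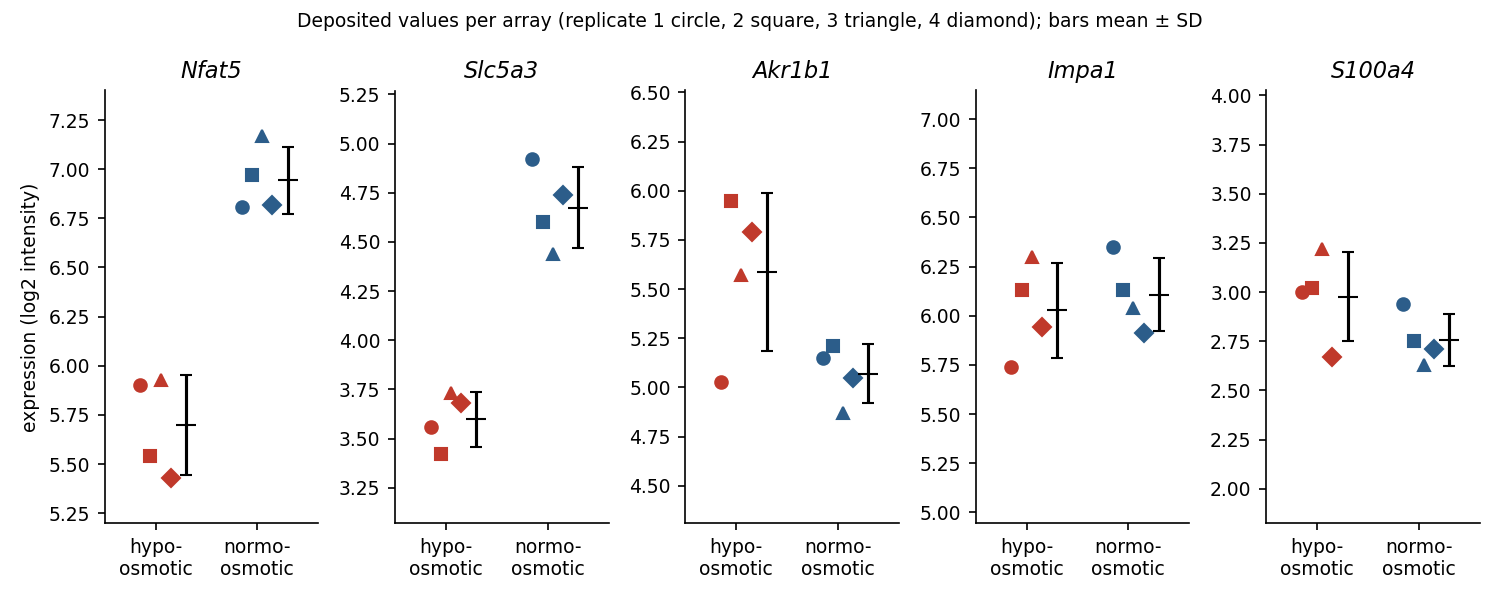
Log2 intensity of each gene on each array, hypoosmotic (red) left of normoosmotic (blue), with the replicate number given by the symbol and the mean ± SD (n = 4) beside it. Every panel spans the same number of log2 units. All hypoosmotic points of Nfat5 (5.43 to 5.93) and Slc5a3 (3.42 to 3.73) lie below all normoosmotic points (6.81 to 7.17 and 4.44 to 4.92), while the groups of the other 3 genes overlap.

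Nfat5 had log2 intensities of 5.90, 5.54, 5.93 and 5.43 in hypoosmotic replicates 1 to 4, against 6.81, 6.97, 7.17 and 6.82 in normoosmotic replicates 1 to 4. The groups were separated by a gap of 0.88 between the highest hypoosmotic and the lowest normoosmotic value, more than the whole range within either group (0.50 hypoosmotic, 0.36 normoosmotic). The means were 5.70 ± 0.25 in hypoosmotic and 6.94 ± 0.17 in normoosmotic livers (SD, n = 4 each). The change was -1.24 ± 0.14 (SE), with a 95% confidence interval of -1.55 to -0.93, or 1.91- to 2.93-fold lower, and an adjusted p of 0.00312 (limma). Ordered from the most negative change, Nfat5 was number 9 of the 14506 genes. With any single array left out it still passed (8 of 8 fits), with changes between -1.32 and -1.15 and adjusted p-values from 0.00255 (without hypoosmotic replicate 3) to 0.0116 (without normoosmotic replicate 4). It was also lower against a minimum fold change of 1.2, where 83 genes passed (limma treat, adjusted p = 0.0209). In RNA from whole liver, fewer cells of a type and less RNA per cell cannot be told apart.

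Slc5a3, whose product brings myo-inositol into the cell together with sodium, had 3.56, 3.42, 3.73 and 3.68 in hypoosmotic replicates 1 to 4, against 4.92, 4.60, 4.44 and 4.74 in normoosmotic replicates 1 to 4. The gap between the groups was 0.71, and the values within a group spanned 0.31 (hypoosmotic) and 0.48 (normoosmotic). The means were 3.60 ± 0.14 in hypoosmotic and 4.68 ± 0.20 in normoosmotic livers (SD, n = 4 each). The change was -1.08 ± 0.12 (SE), with an interval of -1.35 to -0.80, or 1.74- to 2.55-fold lower, and an adjusted p of 0.00312 (limma). Slc5a3 was number 29 among the 14506 genes ordered from the most negative change. Without 1 array its change lay between -1.16 and -0.996, and it passed in all 8 such fits (adjusted p = 0.00420 without hypoosmotic replicate 3) and against the minimum fold change of 1.2 (adjusted p = 0.0233). Its hypoosmotic level was close to, but on each array above, 3.37, the 95th percentile of the mean levels of 53 odorant receptor genes (symbols starting with Olr), which serve here as a guide to signal near background. A level so close to that guide can make a fold smaller than it was in the RNA.

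The rat annotation of RefSeq (GRCr8) places Slc5a3 on chromosome 11, within the span of Mrps6, a gene for a mitochondrial ribosomal protein that was not analysed here. The 250 bases before its annotated start (chr11:44799537-44799786, plus strand) are shown because Slc5a3 is the changed gene with an entry in the table of promoter windows and a known target of Nfat5. The capitals mark the letters GGAAA, the core recognised by the NFAT family, to which Nfat5 belongs.
Slc5a3: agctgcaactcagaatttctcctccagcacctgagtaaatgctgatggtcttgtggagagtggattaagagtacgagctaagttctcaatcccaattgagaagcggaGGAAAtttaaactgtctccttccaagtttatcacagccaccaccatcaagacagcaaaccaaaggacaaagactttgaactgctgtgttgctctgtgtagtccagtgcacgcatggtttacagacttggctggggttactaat
GGAAA occurred 1 time, with its first letter 143 bases before the start, on the printed strand and 0 times on the other. On either strand it was present in 56.9% of the 33469 rat windows of the same length. The longer TGGAAA, which begins the tonicity-responsive element bound by Nfat5 and contains GGAAA, was found in 19.7% of all windows and not in this one. The consensus of the full element, which begins with TGGAAA, was found in 5.17% of all windows and not in this one. These counts describe letters in a short window and say nothing of binding.

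Akr1b1 had 5.03, 5.95, 5.57 and 5.79 in hypoosmotic replicates 1 to 4, against 5.15, 5.21, 4.87 and 5.05 in normoosmotic replicates 1 to 4. Hypoosmotic replicates 2, 3 and 4 lay above every normoosmotic array, and hypoosmotic replicate 1 lay among the normoosmotic values. The means were 5.59 ± 0.40 in hypoosmotic and 5.07 ± 0.15 in normoosmotic livers (SD, n = 4 each). The change of 0.52 ± 0.18 (SE; interval 0.12 to 0.91) had an unadjusted p of 0.0151 and an adjusted p of 0.120 (limma), so the difference did not pass. Without hypoosmotic replicate 1 it was 0.70 with an adjusted p of 0.0210, and in the 7 other fits without 1 array it did not pass (adjusted p up to 0.271, without normoosmotic replicate 3).

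Akr1b1 was the only one of the 5 genes with a second probe set. This one gave 3.32, 3.40, 2.94 and 2.71 in hypoosmotic replicates 1 to 4, against 3.01, 2.50, 2.58 and 2.57 in normoosmotic replicates 1 to 4. Most of these values lie below the guide level of 3.37, and the groups overlap. Its change was 0.43 ± 0.17 (SE), with an adjusted p of 0.224 when all 27596 probe sets were tested together (limma), so both probe sets differed in the same direction and neither passed.

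Impa1 had 5.74, 6.13, 6.30 and 5.94 in hypoosmotic replicates 1 to 4, against 6.35, 6.13, 6.04 and 5.91 in normoosmotic replicates 1 to 4. The groups covered nearly the same values, with means of 6.03 ± 0.24 in hypoosmotic and 6.11 ± 0.19 in normoosmotic livers (SD, n = 4 each). The change was -0.08 ± 0.14 (SE; adjusted p = 0.832, limma), and its interval of -0.39 to 0.23 excludes a fall as large as that of Nfat5 or Slc5a3. Its sign turned when replicate 1 of either group was left out (0.02 without hypoosmotic replicate 1).

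S100a4 had 3.00, 3.02, 3.22 and 2.67 in hypoosmotic replicates 1 to 4, against 2.94, 2.75, 2.63 and 2.71 in normoosmotic replicates 1 to 4. All 8 values lay below the guide level of 3.37, so the probe set gave a signal near background on every array. Its change was 0.22 ± 0.13 (SE; interval -0.06 to 0.50; adjusted p = 0.391, limma), and at this signal a change in the RNA may not have been detectable.

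**Figure D2:**
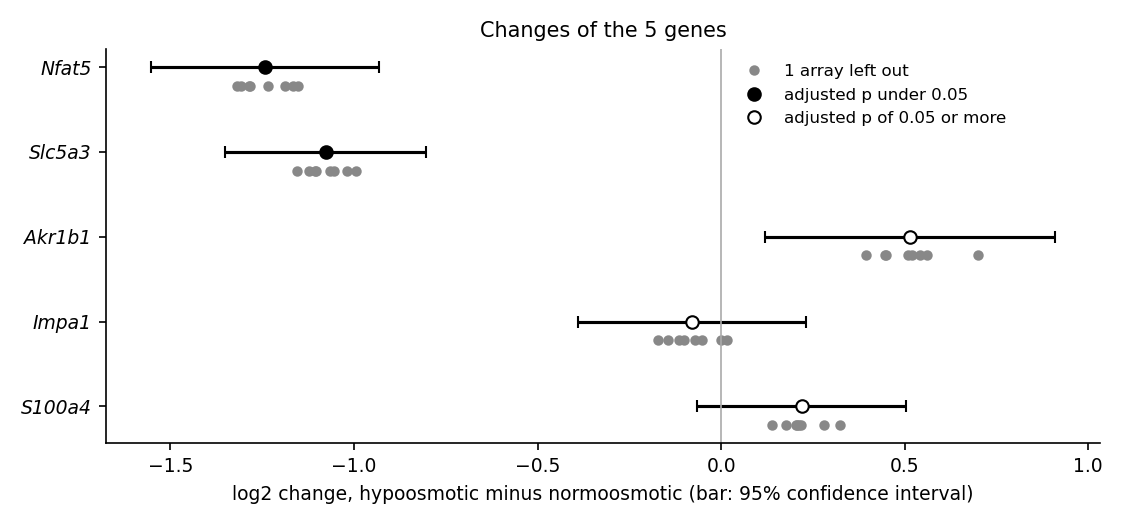
Log2 change (hypoosmotic minus normoosmotic) of each gene with its 95% confidence interval; filled points passed the test, and grey points are the changes with 1 array left out. Nfat5 (-1.24) and Slc5a3 (-1.08) lie well below 0 whichever array is left out, the interval of Akr1b1 (0.12 to 0.91) lies above 0 although its adjusted p is 0.120, and those of Impa1 and S100a4 cross 0.

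Whether the 5 genes changed unequally was tested directly, on the difference between 2 genes within each array, for all 10 pairs (exact permutation test, from both tails, over the 70 ways to divide the arrays, with Benjamini-Hochberg adjustment over the 10 pairs). The smallest p this test can give is 0.0286. These tests use the same values as the changes above and are not independent of them. Of the 10 pairs, 7 passed, each with an exact p of 0.0286 and an adjusted p of 0.0408, and in each of these the groups did not overlap. Of the 10 pairs, 4 include S100a4, whose signal was near background on every array, so they compare the other gene with that signal and do not show whether S100a4 itself changed. The pairs that passed with S100a4 were Nfat5 minus S100a4 and Slc5a3 minus S100a4.

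Nfat5 and Slc5a3, the factor and its target, could not be told apart in the size of their fall. Nfat5 minus Slc5a3 was 2.34, 2.12, 2.20 and 1.75 in hypoosmotic replicates 1 to 4, against 1.89, 2.37, 2.73 and 2.08 in normoosmotic replicates 1 to 4, and the groups overlap. The difference in change was -0.17 ± 0.22 (SE; exact permutation p = 0.486, adjusted p = 0.486), which does not show that they fell equally.

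Slc5a3 and Akr1b1, transporter and enzyme of 2 different osmolytes, changed unequally. Slc5a3 minus Akr1b1 was -1.47, -2.53, -1.84 and -2.11 in hypoosmotic replicates 1 to 4, against -0.23, -0.61, -0.43 and -0.31 in normoosmotic replicates 1 to 4. Every hypoosmotic array, replicate 1 included, lay below every normoosmotic one, and the difference in change was -1.59 ± 0.24 (SE; exact permutation adjusted p = 0.0408). For Nfat5 minus Akr1b1 it was -1.76 ± 0.34 (SE).

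The 2 genes of myo-inositol supply also differed. Slc5a3 minus Impa1 averaged -2.43 ± 0.25 in hypoosmotic and -1.43 ± 0.19 in normoosmotic livers (SD, n = 4 each), a difference in change of -0.998 ± 0.16 (SE; exact permutation adjusted p = 0.0408). Akr1b1 minus Impa1 also passed, at 0.60 ± 0.18 (SE), although neither gene passed alone. Its exact permutation p of 0.0286 is the smallest this test can give. Its adjusted p of 0.0408 depends on the other passing pairs, which share that exact p and each contain Nfat5 or Slc5a3. The pairs of Akr1b1 or Impa1 with S100a4 did not pass (exact permutation adjusted p = 0.381 and 0.0714), with the same limit of signal near background.

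**Figure D3:**
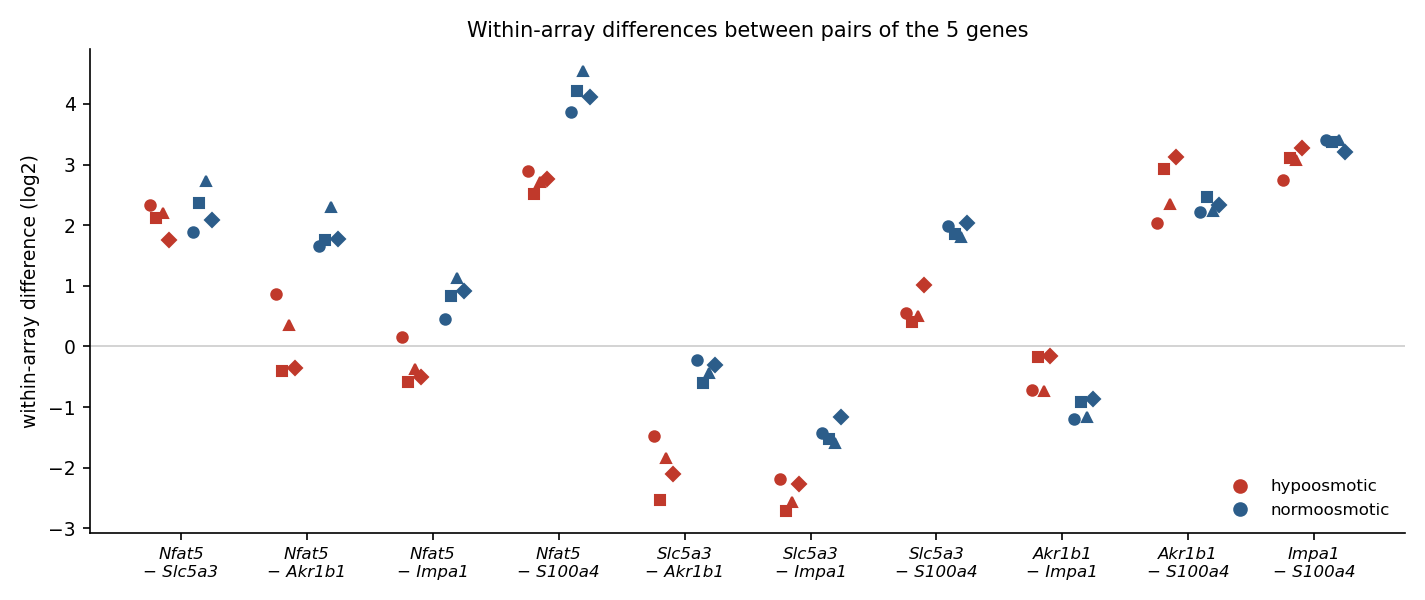
Within-array log2 difference between 2 genes for each of the 10 pairs, hypoosmotic arrays (red) left of normoosmotic arrays (blue), with the replicate number given by the symbol as in the plot of levels. The groups overlap for Nfat5 minus Slc5a3, Akr1b1 minus S100a4 and Impa1 minus S100a4, and are separate for the other 7 pairs. The height of a pair is not a comparison of levels between genes.

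For both changed genes the most similar patterns were sought among all named genes, by the root mean square difference over the 8 arrays after each gene's own mean was subtracted. The 5 nearest to Nfat5 were Prmt1 (0.20; a protein arginine methyltransferase), Npepps (0.22; a cytosolic aminopeptidase), Hsf1 (0.22; the heat shock transcription factor), Cspp1 (0.23; a centrosomal protein) and Rangap1 (0.24; the GTPase-activating protein of Ran). The 5 nearest to Slc5a3 were Tardbp (0.14; an RNA-binding protein), Zfp566 (0.16; a zinc finger protein), Npepps (0.16), Uhrf2 (0.17; a ubiquitin ligase) and Nop56 (0.17; a nucleolar protein). The difference between the groups is the largest part of each of these patterns. Slc5a3 was number 27 in likeness to Nfat5 (0.28), and Nfat5 number 133 in likeness to Slc5a3. Among the normoosmotic arrays Nfat5 was highest in replicate 3, at 7.17, where Slc5a3 had its lowest normoosmotic value, at 4.44. Among the hypoosmotic arrays both genes were highest in replicate 3, Nfat5 at 5.93 and Slc5a3 at 3.73.

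**Figure D4:**
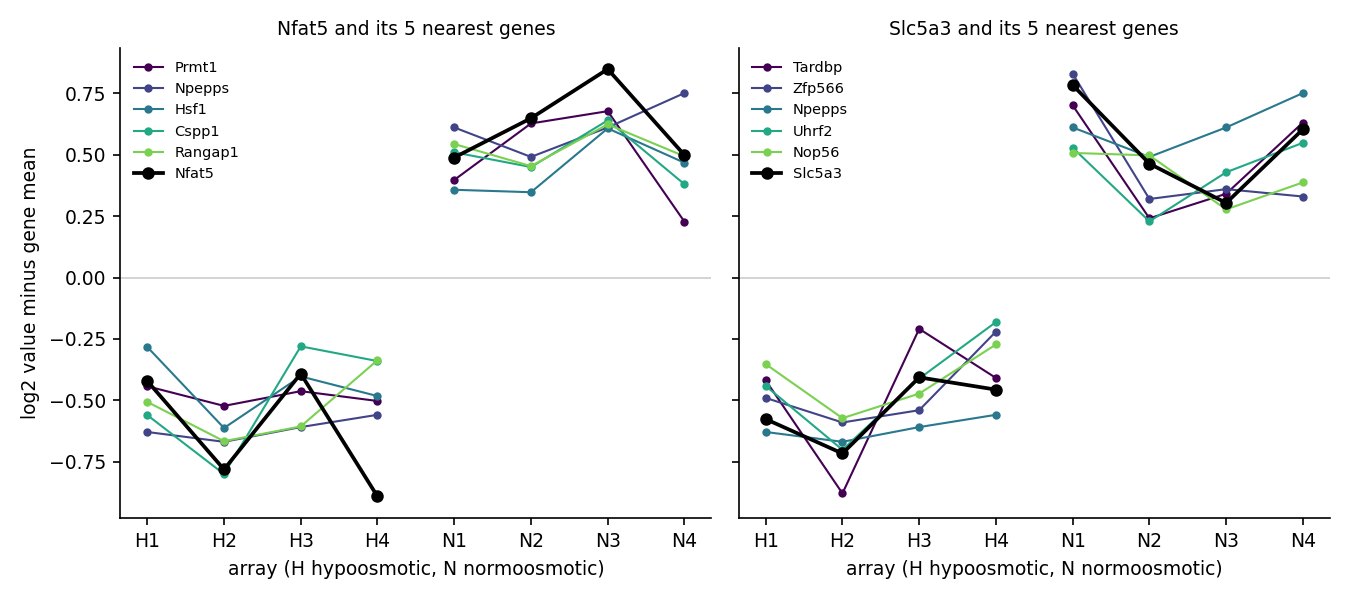
Log2 value minus the gene's own mean over the 8 arrays, for Nfat5 (left, black) and Slc5a3 (right, black) with their 5 nearest genes (coloured), on hypoosmotic (H) and then normoosmotic (N) arrays. Lines only join points of a gene within a group, and replicates have no order. Every gene shown lies below its mean on all hypoosmotic arrays and above it on all normoosmotic ones.

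The other genes around Nfat5 were described through 9 pathway lists with 115 measured genes, of which 15 passed (13.04%, against 7.06% of all genes), 5 higher and 10 lower. Nfat5 and Slc5a3 are 2 of the 15 and were known to have fallen when the lists were made. The lists themselves were chosen with earlier results of these data known, so the share is a description and not a test of the pathways. Without normoosmotic replicate 3 the count was 8, and without hypoosmotic replicate 2 it was 9. Over all genes the median change was 0.015, with 2.45% called higher and 4.61% lower. These shares are the background for the counts of each list below.

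The osmoprotective programme that Nfat5 drives in concentrated surroundings had 9 measured genes. Of these, 7 did not pass, 2 fell and 0 rose, against 7.06% of all genes called, and the median change was 0.05. Besides Slc5a3 the fall was that of Slc38a2, a sodium-coupled transporter of neutral amino acids, with 8.63, 8.35, 9.09 and 9.15 in hypoosmotic replicates 1 to 4, against 10.17, 9.67, 10.11 and 9.97 in normoosmotic replicates 1 to 4. Its groups did not overlap, and its change was -1.18 ± 0.18 (SE; adjusted p = 0.00649, limma). The taurine transporter gene Slc6a6 ranged from 6.10 to 6.76 in hypoosmotic livers, inside the wide range of 4.97 to 6.91 in normoosmotic livers (adjusted p = 0.498). Sgk1, a kinase gene induced by cell shrinkage, had a change of 0.29 ± 0.16 (SE; adjusted p = 0.360). Aqp2 (-0.02), Slc14a2 (0.05) and Hspa4l (-0.04), a water channel, a urea transporter and a chaperone known from kidney, had changes near 0. Slc14a2 (means 3.08 in hypoosmotic and 3.02 in normoosmotic livers) and S100a4 lay below the guide level of 3.37. A change in these genes may not have been detectable, and they enter the median of the list. The betaine transporter gene Slc6a12 and 3 other entries were not analysed here.

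Of 7 measured members of the NFAT and Rel family, 2 fell and 0 rose, with a median of -0.16. Besides Nfat5 this was Nfkb1, which encodes the p105 precursor of NF-kB, at 9.49 ± 0.29 in hypoosmotic and 10.06 ± 0.04 in normoosmotic livers (SD, n = 4 each; adjusted p = 0.0312, limma). Nfkb1 passed in 3 of the 8 fits without 1 array (up to 0.0790, without normoosmotic replicate 3). The calcium-regulated relatives Nfatc2 (0.09 ± 0.16 SE), Nfatc3 (0.05 ± 0.11) and Nfatc4 (-0.16 ± 0.14) did not pass, and the interval of none of them reached the fall of Nfat5.

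Of 26 measured genes whose products are known to act on Nfat5, 1 rose, 3 fell and 22 did not pass, with a median of -0.16. The falls were those of Akap13 (-0.55 ± 0.09 SE), a guanine nucleotide exchange factor that raises Nfat5 expression in mouse lymphocytes, of Dhx9 (-0.65 ± 0.13), an RNA helicase that binds Nfat5, and of the tyrosine kinase gene Abl1 (-0.58 ± 0.16). The nuclear export receptor gene Xpo1 rose by 0.77 ± 0.14 (SE), to 7.10 ± 0.16 in hypoosmotic livers, against 6.33 ± 0.26 in normoosmotic livers (SD, n = 4 each; adjusted p = 0.0111, limma). Akap13, Dhx9 and Xpo1 passed in all 8 fits without 1 array, and Abl1 in 2 (adjusted p up to 0.129, without normoosmotic replicate 3). Abl1 did not pass with array weights (0.0542) or after a further quantile normalization (0.0653). Of those that did not pass, Hsp90aa1 had the smallest p, with a change of -0.39 ± 0.11 (SE; adjusted p = 0.0578, limma) and groups that did not overlap. The kinase gene Mapk14 (p38 alpha), which activates Nfat5, had a change of 0.52 ± 0.17 (SE; adjusted p = 0.0909), and its groups overlap. Of the 26 genes, 13 had an unadjusted p under 0.05 (limma), 5 higher and 8 lower. Such p-values were common over all genes. Akr1b1, at an unadjusted p of 0.0151 (limma), was only number 1830 of the 14506 genes ordered by p. The 13 are therefore not comparable with the 7.06% of all genes that passed after adjustment.

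Of 10 genes known as targets of Nfat5 in immune and vascular cells, 2 fell and 0 rose, with a median of -0.22. Vegfc, a growth factor for lymphatic vessels, was 5.63 ± 0.10 in hypoosmotic and 6.12 ± 0.07 in normoosmotic livers (SD, n = 4 each; adjusted p = 0.0137, limma) and passed in all 8 fits without 1 array. Cxcl2, a chemokine gene, had a change of -0.95 ± 0.25 (SE; adjusted p = 0.0470). It passed in 1 of the 8 fits (up to 0.118, without normoosmotic replicate 2) and not with an intensity trend and robust variances (0.0596). Tnf, which encodes tumour necrosis factor, had a change of -0.70 ± 0.26 (SE; adjusted p = 0.153).

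**Figure D5:**
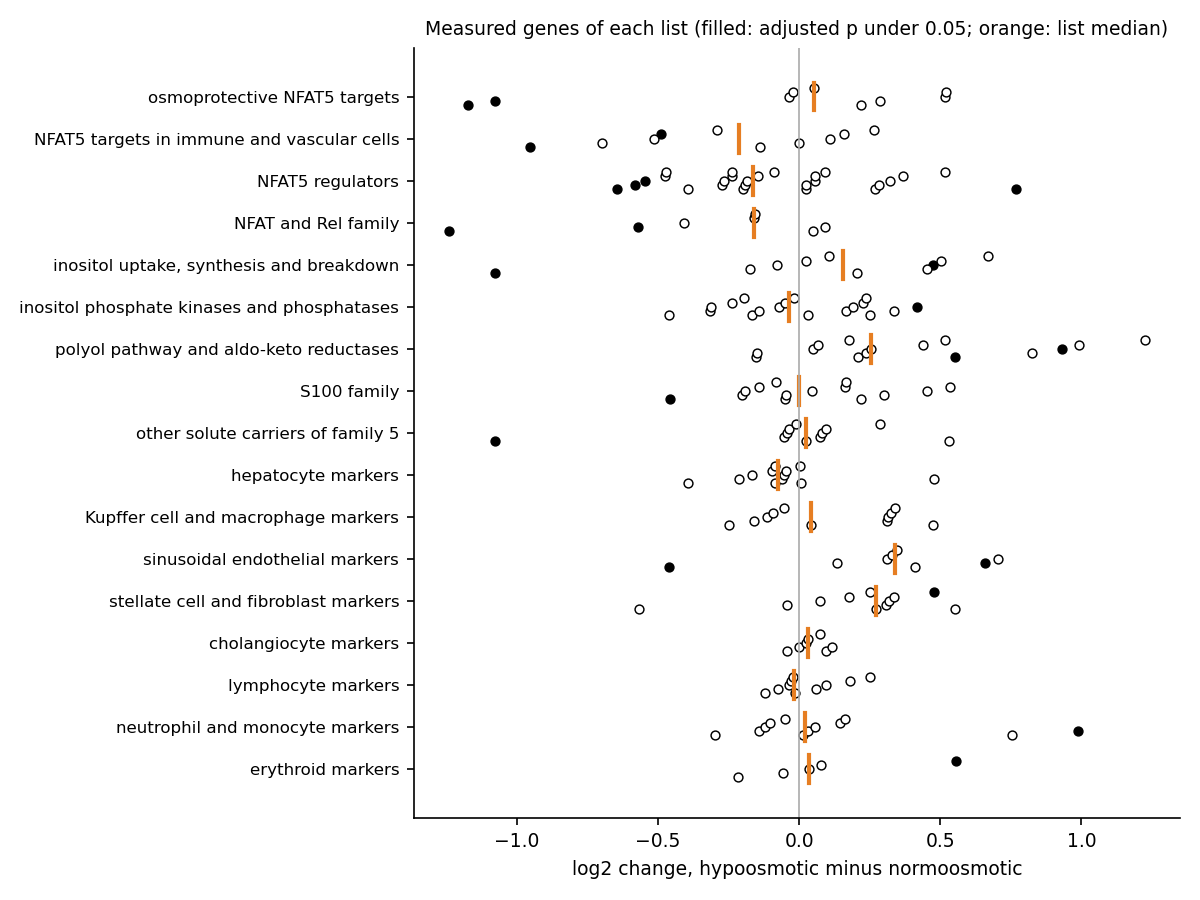
Log2 change of every measured gene of the 9 pathway lists and, below them, 8 lists of cell type markers. Filled points passed the test, the orange bar is the list's median, and points are spread vertically only for legibility. Nfat5 (-1.24), Slc38a2 (-1.18) and Slc5a3 (-1.08) lie farthest to the left, and the orange bars lie between -0.22 and 0.26 for the pathway lists and between -0.07 and 0.34 for the cell type lists, highest for the sinusoidal endothelial (0.34) and stellate cell (0.27) markers.

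Of 10 measured genes of myo-inositol uptake, synthesis and breakdown, 1 rose, 1 fell and 8 did not pass, with a median of 0.16. Slc5a3 was the fall. Bpnt1, which encodes a lithium-sensitive phosphatase of the same superfamily as Impa1, rose to 6.88 ± 0.10 in hypoosmotic livers, against 6.41 ± 0.17 in normoosmotic livers (SD, n = 4 each; adjusted p = 0.0302, limma), and passed in 2 of the 8 fits without 1 array (up to 0.0938, without normoosmotic replicate 3). Impa2, the second inositol monophosphatase gene, had 4.36, 4.26, 4.58 and 4.46 in hypoosmotic replicates 1 to 4, against 3.70, 3.88, 4.11 and 4.16 in normoosmotic replicates 1 to 4. Its groups did not overlap, but its change of 0.45 ± 0.13 (SE) had an adjusted p of 0.0566 (limma). Inpp1, a phosphatase gene one step before Impa1, had a change of 0.67 ± 0.25 (adjusted p = 0.156), and Miox, whose enzyme breaks down myo-inositol, one of 0.50 ± 0.20 (0.167). The other myo-inositol transporter genes Slc5a11 (0.02 ± 0.10) and Slc2a13 (-0.18 ± 0.13) and the synthase gene Isyna1 (0.20 ± 0.10) did not pass. Among 11 measured genes of solute carrier family 5, Slc5a3 was the 1 that passed, against 7.06% of all genes. The glucose transporter gene Slc5a1 had a change of 0.53 ± 0.17 (SE; adjusted p = 0.0868, limma). Of these 11, only 4 remained when the 30% dimmest genes were left out. Most relatives of Slc5a3 thus gave weak signal, and a change in them may not have been detectable.

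Of 18 kinases and phosphatases of inositol phosphates and phosphoinositides, 1 rose and 0 fell, near the 7.06% called over all genes, with a median of -0.04. This was Ocrl, which encodes a phosphoinositide phosphatase, at 4.84 ± 0.13 in hypoosmotic and 4.43 ± 0.10 in normoosmotic livers (SD, n = 4 each; adjusted p = 0.0362, limma). It passed in 2 of the 8 fits without 1 array (up to 0.0969, without normoosmotic replicate 3) and not after median centring (0.0549).

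Of 15 measured genes of the polyol pathway and the aldo-keto reductases, 2 rose and 0 fell, with a median of 0.26. They were Akr7a2 (0.55 ± 0.10 SE; adjusted p = 0.0114, limma) and Akr7a3 (0.93 ± 0.24; 0.0401), which encode reductases of reactive aldehydes. Akr7a2 passed in all 8 fits without 1 array and Akr7a3 in 2 (up to 0.113, without normoosmotic replicate 3), and the groups of Akr7a3 overlap. Sord, sorbitol dehydrogenase, which turns the sorbitol made by Akr1b1 into fructose, was 9.99 ± 0.13 in hypoosmotic and 9.93 ± 0.10 in normoosmotic livers (SD, n = 4 each), with a change of 0.06 ± 0.11 (SE; adjusted p = 0.814). Akr1b8, which lies next to Akr1b1 in the annotation, spread widely, from 4.91 to 7.77 in hypoosmotic and from 4.90 to 6.47 in normoosmotic livers. Aldo-keto reductases are similar in sequence, and their probes can share signal.

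Of 14 measured S100 genes, 1 fell and 0 rose, near the 7.06% called over all genes, with a median of 0.00. This was S100a16 (-0.46 ± 0.12 SE; adjusted p = 0.0471, limma), which passed in 0 of the 8 fits without 1 array (0.0504 to 0.124, highest without normoosmotic replicate 4). It also did not pass with the replicate number as a block (0.0672) or with an intensity trend and robust variances (0.0558). S100a6, which lies close to S100a4 in the annotation, had a change of 0.54 ± 0.16 (SE; adjusted p = 0.0675). Of the 14 genes, 8 remained when the 30% dimmest genes were left out, so several besides S100a4 gave weak signal.

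The RNA came from all cells of the liver, and markers of other cell types are given as measured facts beside these results. The background for markers that passed is the 7.06% of all genes called. Unadjusted p-values under 0.05 were more common than that over all genes, where a p of 0.0151 (Akr1b1, limma) was number 1830 of 14506. Of 11 macrophage markers 0 passed (limma; 0 at an unadjusted p under 0.05), with a mean log2 level per array of 6.10 to 6.92 in hypoosmotic and 6.07 to 6.56 in normoosmotic livers. Of 8 sinusoidal endothelial markers 1 rose (Kdr, 0.66 ± 0.15 SE) and 1 fell (Oit3, -0.46 ± 0.11), while 5 had an unadjusted p under 0.05 (limma), 4 of them higher. The median change of these markers was 0.34, against 0.015 over all genes, 87.5% of them had a positive change, and their mean level was 6.998 to 7.56 in hypoosmotic and 6.86 to 7.09 in normoosmotic livers. Of 11 stellate cell and fibroblast markers 1 rose (Colec11, 0.48 ± 0.12 SE), while 4 had an unadjusted p under 0.05 (limma), 3 of them higher. Their median change was 0.27, 81.8% of them had a positive change, and their mean level was 5.55 to 6.29 in hypoosmotic and 5.72 to 5.87 in normoosmotic livers. Kdr passed in 2, Oit3 in 1 and Colec11 in 2 of the 8 fits without 1 array, with adjusted p-values up to 0.0654 for Kdr (normoosmotic replicate 1 left out), 0.0783 for Oit3 (hypoosmotic replicate 1) and 0.107 for Colec11 (hypoosmotic replicate 2).

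Of 10 lymphocyte markers 0 passed (limma; 0 at an unadjusted p under 0.05) and 9 lay at or below the guide level of 3.37, with a mean level of 2.90 to 3.07 in hypoosmotic and 2.87 to 3.08 in normoosmotic livers. Of 12 neutrophil and monocyte markers 1 rose and 9 lay at or below the guide level, with a mean level of 3.03 to 3.22 in hypoosmotic and 2.97 to 3.08 in normoosmotic livers. The rise was that of Lyz2, lysozyme, also a product of macrophages (0.99 ± 0.15 SE; adjusted p = 0.00512, limma), which passed in all 8 fits without 1 array. Of 7 cholangiocyte markers 0 passed, also unadjusted, and 3 lay at or below the guide level (mean level 3.80 to 3.83 in hypoosmotic and 3.76 to 3.80 in normoosmotic livers). Of 5 erythroid markers 1 passed and 3 lay at or below the guide level (mean level 4.10 to 4.40 in hypoosmotic and 3.55 to 4.95 in normoosmotic livers). The marker that passed was Ahsp, which averaged 2.12 in hypoosmotic and 1.57 in normoosmotic livers, below the guide level in both, so its difference is one of signal near background. It passed in 2 of the 8 fits (up to 0.0933, without normoosmotic replicate 1) and not after a further quantile normalization (0.0598). The part of cell composition in the changes of Nfat5 and Slc5a3 was not tested.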

How the data were processed

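Rat liver RNA (1 µg in total per array, per the labels' protocols) was labelled by a whole-transcript sense assay and hybridised to Affymetrix arrays. The authors deposited log2 expression values with 2 decimals for 27596 probe sets and 8 arrays. The submitters' processing notes name RMA, Transcriptome Analysis Console 4.0 and Affymetrix Expression Console without saying which did what. RMA is known to equalise array distributions, which removes any shift common to most genes. Probe masking and detection calls were not used here.

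Groups and replicate numbers came from the sample titles. The platform annotation of 2016 named the probe sets, with symbols updated through RefSeq gene identifiers (15310 had 1 symbol, 323 several, 11963 none), and the highest-mean probe set was kept for each of 14506 genes. Limma 3.58.1 (R 4.3.3) was fitted with group as the only term. Exact permutation tests used scipy 1.17.1. With 4 arrays per group, their number sets the precision. On simulated data for this comparison, the changed genes that were called had the right sign. That check covers called genes only, so it does not give the share of changes missed or of false calls.

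The 5 genes, the gene lists and the tests were chosen with earlier results of these data known. Genes named are the 5, from each pathway list those that passed (at most 6) and up to 3 others with the smallest p-values, from each cell type list up to 2, and the 5 nearest patterns of each changed gene. Nfatc2, Nfatc3, Slc6a6, Slc5a11, Slc2a13, Isyna1, Sord, Akr1b8, Aqp2, Slc14a2 and Hspa4l were named outside this rule, for their roles and after their values were seen. Alternatives were the replicate number as a block, array weights, an intensity trend with robust variances, quantile normalization, median centring, leaving out the 30% dimmest genes, averaging probe sets, testing all probe sets, a minimum fold change of 1.2, and leaving out each array.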

Additional observations from a re-analysis of the deposited data

Results flagged for a closer look

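In the second probe set of Akr1b1, normoosmotic replicate 1 (3.01) lay far from the other normoosmotic arrays (2.50 to 2.58), with a gap to the nearest of 84.3% of the group's range. It was the 1 flag among 12 groups of 4 arrays examined, and chance flags about 5% of groups. The value lies below the guide level of 3.37, and the probe set kept for Akr1b1 showed no such array.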

How the results depend on the processing

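Nfat5 and Slc5a3 kept their direction and passed under all 17 alternatives. S100a4 did not pass under any of the 16 that could be run, since it was left out with the dimmest 30% of genes, and Impa1 and Akr1b1 did not pass either, apart from Akr1b1 without hypoosmotic replicate 1 (0.70). With 1 array left out the changes were 0.39 to 0.70 for Akr1b1 and -0.17 to 0.02 for Impa1, whose sign turned without hypoosmotic replicate 1 (0.016) and without normoosmotic replicate 1 (0.00083). The count of changed genes was 83 against a minimum fold change of 1.2, a stricter hypothesis, and 464 to 1050 with 1 array left out, where fewer samples also mean less power. The count of called genes in the 9 pathway lists was 3 with the minimum fold change and 8 to 15 with 1 array left out. The differences between pairs kept their direction and their side of the threshold after quantile normalization and with averaged probe sets. With 1 array left out the exact test cannot reach 0.05, no other test was run, and the differences moved by less than the SD pooled over both groups, though Slc5a3 minus Akr1b1 and the differences of Slc5a3, Akr1b1 and Impa1 from S100a4 moved by more than the normoosmotic SD alone. Same-numbered arrays had correlations of 0.01, 0.26, 0.12 and 0.06 in their deviations from the group means. Hypoosmotic replicate 1 correlated best with normoosmotic replicate 2 (0.15). Each of the other hypoosmotic arrays correlated best with the normoosmotic array of its own number. For hypoosmotic replicate 3 the correlation with normoosmotic replicate 1 was nearly as high (0.11). The number was not taken as a pairing, but these values do not exclude one. With the replicate number as a block 1027 genes passed, 19 of them in the pathway lists, and the adjusted p was 0.00704 for Nfat5 and 0.00735 for Slc5a3. Signal near background limits S100a4 and the second probe set of Akr1b1, and also Slc14a2, Slc5a11, Slc2a13, Ahsp and other dim genes of the lists.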
